A study of Rattus norvegicus with 9 samples.

Results

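The genes described here encode collagens, laminins, nidogens, fibulins, fibrillins, elastin, fibronectin and SPARC, together with the proteases that cut them and the inhibitors of these proteases. They were picked by gene name alone, from the annotation of the array, but the names were set with earlier results of these data known. The names taken were those of collagen chains, those beginning with Lama, Lamb, Lamc, Fbln, Fbn, Efemp, Nid, Mmp, Timp or Adamts and a digit, and Fn1, Sparc and Eln, with Timp1 left out. This gave 106 members of 26115 gene names on the array, measured by 135 probes. Of these, 58 passed the filter on low values and were tested, among 13937 genes tested in all.

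RNA of 1 rat kidney was measured on each of 9 one-colour Agilent arrays, 5 of non-perfused kidneys (NP) and 4 of kidneys perfused with mesenchymal stromal cells (MSC). All were left kidneys of Fisher F344 rats taken after 20 min. of warm ischaemia, a model of donation after circulatory death. NP kidneys then went directly to RNA storage. MSC kidneys were first perfused for 4 hrs at 4°C with Belzer solution (BS) holding 3000000 bone marrow MSC of transgenic Sprague Dawley rats that express EGFP, expanded in culture. The ages of the rats are not given in the sources used here. Perfusion and cells cannot be told apart in this comparison, since by the study's methods every MSC kidney had both and no NP kidney had either. The labels are divided on the NP kidneys: their treatment field calls them not perfused, whereas their titles name the same 4 hrs of perfusion with BS. No label gives a litter or a day of surgery, so p-values measure the spread between these 9 kidneys.

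The arrays lay on 2 slides, the first with NP replicates 1, 2 and 3 and MSC replicates 1 and 2, the second with NP replicates 4 and 5 and MSC replicates 3 and 4. Between 65.6% and 74.3% of the gene spots were well above background on each array. Kidney markers were present, with 10 of 10 genes of the proximal tubule, 10 of 10 of the distal nephron and collecting duct and 9 of 10 podocyte genes passing the filter. The 10 genes of the distal nephron and collecting duct all had a higher mean in MSC, 5 of them at an unadjusted limma p under 0.05, with a median log2 fold change of 0.46. Of 10 neutrophil genes listed 3 passed the filter, and 2 of these were lower at that p, against 5.07% of all genes. They were S100a8 with a log2 fold change of -0.85 and S100a9 with -0.95. Their groups overlapped, with S100a8 and S100a9 at 7.99 and 8.30 on MSC replicate 1 and 10.05 and 10.86 on MSC replicate 2. The mean centred level of the podocyte genes was -0.63 on MSC replicate 4 and lay between -0.25 and 0.31 on the other arrays. The mean centred log2 level of 10 fat genes was 2.04 and 1.32 on MSC replicates 3 and 4 and lay between -1.04 and 0.03 on the other arrays. The part of these markers in the matrix values was not tested.

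The extracellular matrix of the kidney has a basement membrane and an interstitial compartment. Type IV collagen and laminin form the sheets under tubules, capillaries and the glomerular filter, and nidogens bridge the sheets. Fibrillar collagens, fibronectin and elastic fibres fill the interstitium and the vessel walls, and they accumulate in renal scarring. Matrix metalloproteases (MMPs) and ADAMTS proteases cut these proteins, and the tissue inhibitors of metalloproteases (TIMPs) block the cutting. Matrix proteins turn over slowly, and the arrays measured transcripts and not the matrix itself.

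None of the 58 members was called in limma at an FDR below 0.05 and a fold change above 1.5, where 0% of all 13937 genes were called. The paper reports Tmem52b and Calb1, neither a member here, as higher in MSC at these cut-offs. The rerun did not recover these calls, and its smallest FDR over all genes was 0.10. At an unadjusted limma p under 0.05, 3 members were higher in MSC, against 6.57% of all genes, and 3 were lower, against 5.07%. The 3 higher ones were Efemp1, Col1a1 and Lamb2, and the 3 lower ones Col17a1, Mmp24 and Mmp11. Each direction is 5.17% of the members, a share near the background. By sign alone 38 of 58 members (65.5%) had a higher mean in MSC, against 48.6% of all genes, and the median log2 fold change was 0.13 over the members and -0.01 over all genes. The members' median moved with the arrays, from 0.07 without MSC replicate 1 to 0.21 without NP replicate 2, and it was 0.01 within the first slide and 0.22 within the second. These are whole-tissue levels, in which fewer cells of a type and less RNA per cell cannot be told apart.

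**Figure D1:**
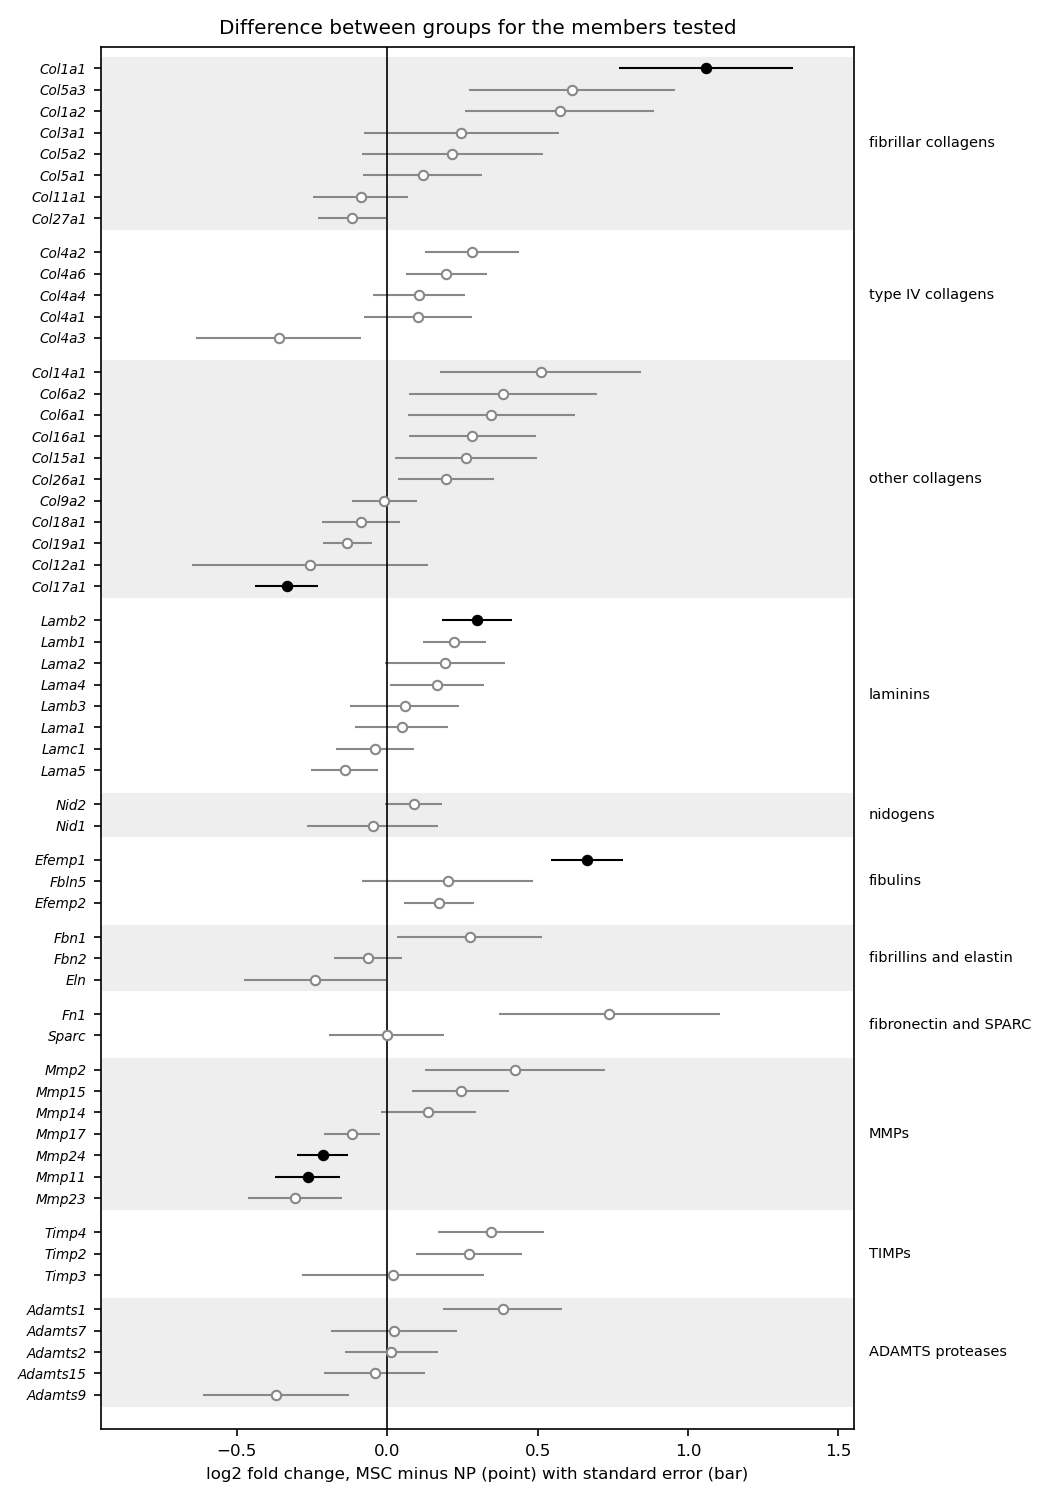
The log2 fold change of MSC over NP on the x axis, with its limma standard error as a bar, is plotted for the members tested and reported here, grouped by class. Filled points are the 6 members with an unadjusted p under 0.05, and most open points lie within about 2 standard errors of 0, on both sides of it.

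Efemp1 had the smallest p of the members. It encodes fibulin-3, a secreted glycoprotein of elastic tissue and basement membranes. Its probe lies on rn4 at chr14:109828462-109828521, plus strand, and exon or UTR was not assigned to probes, since no annotation of that build was used here. Its log2 intensity was 11.48, 11.18, 10.94, 11.34 and 11.30 on NP replicates 1 to 5 and 11.86, 12.04, 11.72 and 12.02 on MSC replicates 1 to 4. All 4 MSC arrays lay above all 5 NP arrays, as was the case for 3.16% of all genes and for 1 of the 58 members. The group means were 11.25 ± 0.20 (SD, n = 5) and 11.91 ± 0.15 (SD, n = 4), a 1.58-fold difference (log2 fold change 0.66, SE 0.12). It did not pass the correction, with a limma FDR of 0.335. Its exact two-sided permutation p, not corrected for the number of tests, was 0.00794, the smallest that splitting 9 arrays into 5 and 4 allows. The difference was 0.75 within the first slide and 0.55 within the second, and it stayed between 0.55 and 0.76 over 26 alternative settings. Its unadjusted limma p was under 0.05 in 26 of 26. For the other 5 members at that p this was so in 24 (Col1a1), 23 (Col17a1) and 15 (Lamb2, Mmp11 and Mmp24 each) of 26.

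The other fibulins passing the filter were Efemp2, which encodes fibulin-4 and is needed for collagen and elastin crosslinking, and Fbln5, which encodes fibulin-5 of elastic fibres. Their log2 fold changes were 0.17 (SE 0.12) and 0.20 (SE 0.28), neither at an unadjusted limma p under 0.05. A second Efemp2 probe gave -0.05 (SE 0.11), so the direction for this gene depended on the probe. Fbln1, Fbln2 and Fbln7 were below the filter.

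The 250 bases before the start of Efemp1 are printed because this gene had the smallest p of the members. They come from RefSeq on GRCr8, at chr14:106811614-106811863 on the plus strand. Capitals mark TGANTCA, a looser form of TGACTCA, the core of AP-1 sites, and GGGCGG, the GC box, each searched on both strands. The first stretch marked in Efemp1 has the looser form and not that core.

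Efemp1: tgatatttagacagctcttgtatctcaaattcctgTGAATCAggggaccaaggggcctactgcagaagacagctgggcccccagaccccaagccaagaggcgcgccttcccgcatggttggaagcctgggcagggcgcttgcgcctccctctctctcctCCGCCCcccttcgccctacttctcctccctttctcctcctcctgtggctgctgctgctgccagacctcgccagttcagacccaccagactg

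TGANTCA occurred in 6.34% of 33469 such windows of all genes and in 10 of the 80 members that had a window (12.5%). Of these 10, 7 were MMP genes of 1 cluster on chromosome 8 that were below the filter, and among the other 70 members 3 windows held it (4.29%). TGACTCA itself occurred in 4.05% of all windows and in 2 of those 70 (2.86%). GGGCGG occurred in 30.5% of all windows and in 40 of 80 members.

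Among the fibrillar collagens, 6 of 8 tested members had a higher mean in MSC and the class median was 0.23 on the log2 scale. Leaving out 1 array moved that median from 0.05 (without NP replicate 1) to 0.49 (without NP replicate 2). Col1a1 encodes the alpha-1 chain of type I collagen, the main fibre of scar tissue. Its probe lies on rn4 at chr10:83639260-83639319, plus strand. Its log2 intensity on NP replicates 1 to 5 was 11.12, 12.61, 11.60, 11.72 and 11.64, and on MSC replicates 1 to 4 it was 12.83, 12.22, 12.83 and 13.31. NP replicate 2 was above MSC replicate 2, and apart from that pair the groups were separate. The means were 11.74 ± 0.54 (SD, n = 5) and 12.80 ± 0.45 (SD, n = 4), a 2.08-fold difference (log2 fold change 1.06, SE 0.29, limma FDR 0.336, exact permutation p = 0.0238). A second Col1a1 probe gave 0.70 (SE 0.22). The difference was 0.75 within the first slide and 1.39 within the second.

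Col1a2 encodes the partner chain in the type I collagen triple helix. Its log2 intensity was 13.68, 15.15, 14.04, 14.10 and 14.28 in NP and 14.87, 14.04, 15.06 and 15.32 in MSC. The groups overlapped, with NP replicate 2 second among all 9 arrays and MSC replicate 2 among the low NP values. Its log2 fold change was 0.57 (SE 0.32, limma FDR 0.505). Col3a1, the type III chain that forms fibres together with type I, had 12.21, 13.96, 12.96, 12.87 and 12.60 in NP and 13.42, 12.59, 13.55 and 13.13 in MSC. Here NP replicate 2 was the highest of the 9 arrays, and the log2 fold change was 0.25 (SE 0.32). Col5a3 had a log2 fold change of 0.61 (SE 0.34) in which MSC replicate 3 stood at 10.47 and the other 8 arrays between 8.38 and 9.12. That array also had the highest fat score, and the part of fat in this value was not tested. In this class Col2a1, Col11a2 and Col24a1 were below the filter.

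**Figure D2:**
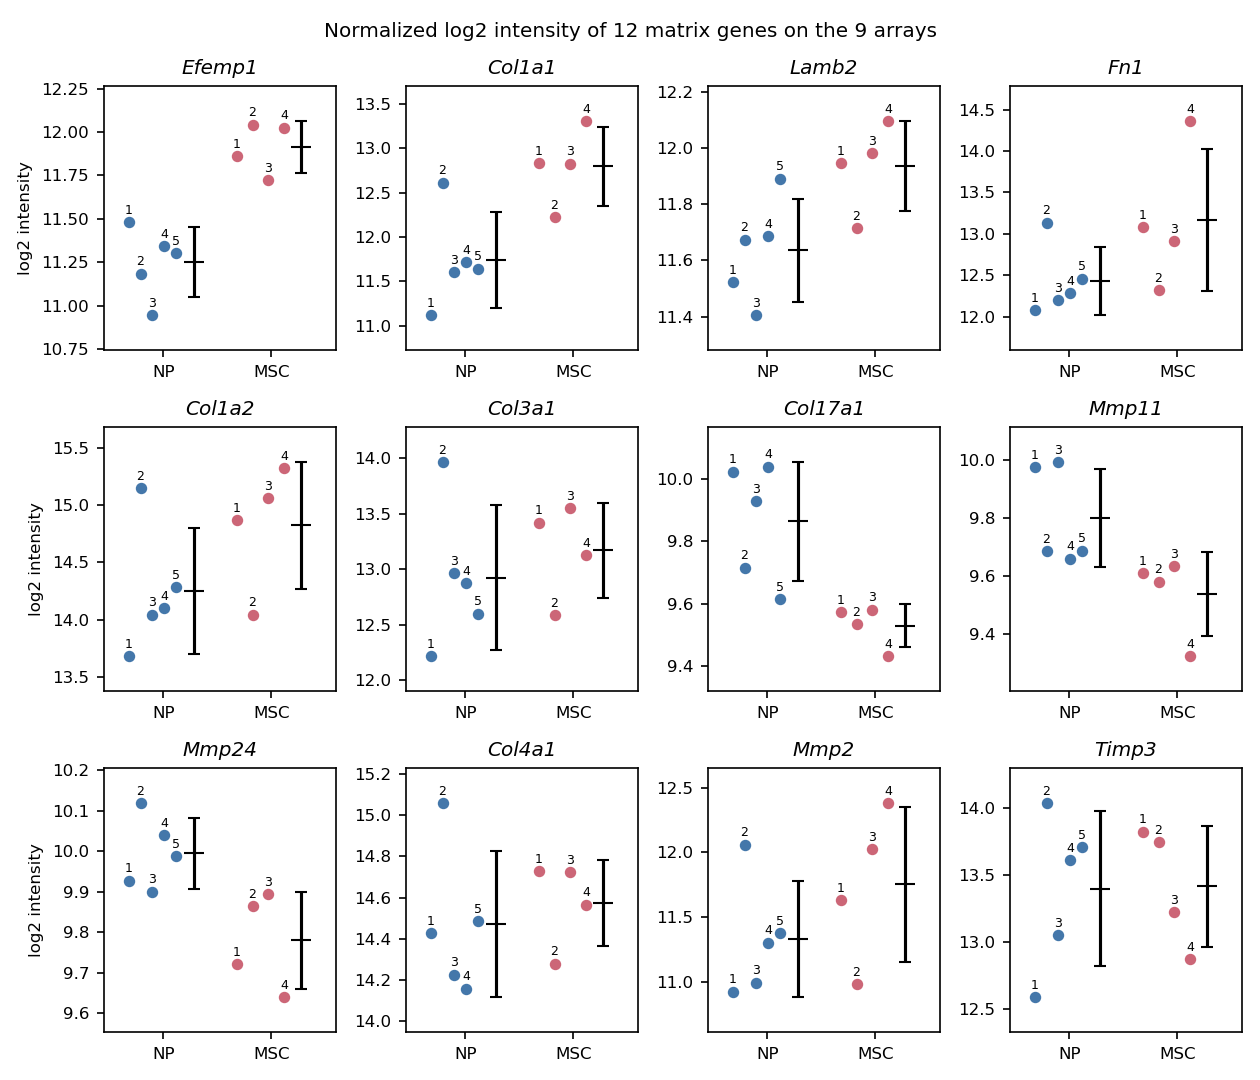
Normalized log2 intensity of 12 members on each array is plotted, with NP in blue and MSC in red, the replicate number above each point and the group mean with its SD beside the points. Each panel has its own log2 scale. Efemp1, Col17a1, Mmp11 and Mmp24 do not overlap between groups. In Col1a2, Col3a1, Fn1 and Mmp2 NP replicate 2 lies with the higher MSC arrays. MSC replicate 2 lies with the lower NP arrays in Col1a2, Col3a1 and Mmp2, and inside the NP range in Fn1.

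All 5 type IV collagen chains on the array were tested and none had an unadjusted limma p under 0.05 on the probe kept. The class median was 0.11, with 0.05 without MSC replicate 1, 0.22 without NP replicate 2, 0.01 within the first slide and 0.32 within the second. Col4a1 and Col4a2 encode the chains of the common basement membrane network. Col4a1 had 14.43, 15.06, 14.23, 14.16 and 14.48 in NP and 14.73, 14.28, 14.72 and 14.57 in MSC, with a log2 fold change of 0.10 (SE 0.18). Col4a2 had 9.53, 10.37, 9.92, 9.94 and 10.08 in NP and 10.33, 9.99, 10.33 and 10.35 in MSC, with a log2 fold change of 0.28 (SE 0.16). For both genes NP replicate 2 was the highest array, and MSC replicate 2 the lowest of the MSC arrays.

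The Col4a1 value depended on the probe. The probe above was kept because it varied most between arrays. A second, dimmer probe of Col4a1, at 9.18 to 9.75 on the 9 arrays, had a log2 fold change of 0.29 (SE 0.10). Its unadjusted limma p was 0.0131, with a limma FDR of 0.335 over all probes. This second probe lies in the part of the message that encodes the triple helix, where glycine opens each triplet of residues. It is printed with the glycine codons of that reading frame in capitals, beside a Col4a6 probe of the same kind that was not above the filter. Their positions on rn4 are chr16:83146135-83146194 and chrX:37482127-37482186, both on the plus strand.

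Col4a1 probe: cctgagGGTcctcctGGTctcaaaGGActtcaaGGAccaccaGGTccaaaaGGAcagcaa
Col4a6 probe: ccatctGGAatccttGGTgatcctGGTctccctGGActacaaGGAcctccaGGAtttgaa

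Only 9 of 30367 gene probes on the array hold glycine codons in this spacing through their whole length.

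Col4a3 and Col4a4 encode chains of the mature glomerular filter, which podocytes make. Col4a3 had 9.97, 11.45, 10.53, 10.23 and 10.30 in NP and 9.94, 10.29, 9.83 and 10.49 in MSC, a log2 fold change of -0.36 (SE 0.27). Col4a4 had 13.15, 12.43, 12.67, 12.65 and 12.70 in NP and 13.08, 12.96, 12.71 and 12.56 in MSC, a log2 fold change of 0.11 (SE 0.15). The 2 genes ordered the NP arrays differently: NP replicate 2 was highest for Col4a3 and lowest for Col4a4. The 9 podocyte markers that passed the filter had a median log2 fold change of -0.27, with 1 of 9 higher and none at an unadjusted limma p under 0.05, and the log2 of their summed intensity ranged from 15.42 to 16.14 in NP and from 15.08 to 15.83 in MSC. Synpo was below the filter. The part of podocyte content in the type IV values was not tested.

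These 4 genes stand in head-to-head pairs. On GRCr8 the starts of Col4a1 and Col4a2 are separated by 76 bases, at chr16:84885521-84885596, and those of Col4a3 and Col4a4 by 412 bases. The stretch between the starts of the first pair is printed whole, and that before Col4a3 over 250 bases at chr9:91323740-91323989, both on the plus strand, with GGGCGG or its reverse complement in capitals. Each holds 1 such box.

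Col4a1-Col4a2: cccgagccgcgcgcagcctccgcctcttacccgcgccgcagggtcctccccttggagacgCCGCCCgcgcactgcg
Col4a3: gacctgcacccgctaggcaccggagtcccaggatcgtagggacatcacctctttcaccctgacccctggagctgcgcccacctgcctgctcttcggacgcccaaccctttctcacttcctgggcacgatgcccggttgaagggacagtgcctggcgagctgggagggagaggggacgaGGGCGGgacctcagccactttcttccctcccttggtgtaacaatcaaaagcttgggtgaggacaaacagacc

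Of the other collagens, 11 of 25 passed the filter, 6 with a higher and 5 with a lower mean in MSC, and the class median was 0.20. This median was 0.08 without MSC replicate 4, 0.36 without MSC replicate 2 and -0.09 within the first slide. Col17a1, a transmembrane collagen that anchors epithelial cells in hemidesmosomes, was lower. Its log2 intensity was 10.02, 9.72, 9.93, 10.04 and 9.62 in NP and 9.57, 9.54, 9.58 and 9.43 in MSC. Every MSC array lay below every NP array, as for 2.11% of all genes and for 3 of the 58 members. The nearest arrays were close, NP replicate 5 at 9.62 and MSC replicate 3 at 9.58. The filter limit was 8.71 to 8.77 by array, and the other Col17a1 probe did not pass it. The means were 9.86 ± 0.19 (SD, n = 5) and 9.53 ± 0.07 (SD, n = 4), a 1.26-fold difference (log2 fold change -0.33, SE 0.10, limma FDR 0.337, exact permutation p = 0.0238).

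Col15a1 and Col18a1 encode basement membrane collagens with heparan sulphate or chondroitin sulphate chains. Their log2 fold changes were 0.26 (SE 0.24) and -0.09 (SE 0.13). Col6a1 and Col6a2, which form beaded filaments around cells, were at 0.35 (SE 0.28) and 0.39 (SE 0.31). Col14a1, which binds the surface of collagen fibres, was at 0.51 (SE 0.33) with 10.31 and 10.78 on MSC replicates 3 and 4, and 9.40 and 9.29 on MSC replicates 1 and 2. Col12a1, its relative, was at -0.26 (SE 0.39) with values from 11.67 to 13.91 within NP alone.

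Of the 9 laminin chains tested, 7 had a higher mean in MSC and the class median was 0.16, with 0.05 without MSC replicate 3 and 0.25 without MSC replicate 2. Lamb2 encodes the beta-2 chain of the laminin of the mature glomerular filter. It had 11.52, 11.67, 11.40, 11.69 and 11.89 in NP and 11.95, 11.71, 11.98 and 12.10 in MSC. Only MSC replicate 2 lay within the NP range. The means were 11.64 ± 0.18 (SD, n = 5) and 11.93 ± 0.16 (SD, n = 4), a log2 fold change of 0.30 (SE 0.12, limma FDR 0.392, exact permutation p = 0.0397).

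Lamb1, the beta-1 chain found in most kidney basement membranes, differed by 0.22 (SE 0.10, limma FDR 0.443). Lamc1, the gamma-1 chain that nearly all laminins share, was at -0.04 (SE 0.13), and Lama5, the alpha chain of tubular and glomerular laminin, at -0.14 (SE 0.11). Lama2, Lama4, Lamb3 and Lama1 lay between 0.05 and 0.19. The nidogens, which join laminin to type IV collagen, had log2 fold changes of -0.05 (Nid1, SE 0.22) and 0.09 (Nid2, SE 0.09).

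Fibronectin is a large adhesive glycoprotein of plasma and interstitium. Fn1 had 12.08, 13.13, 12.20, 12.28 and 12.46 in NP and 13.08, 12.32, 12.92 and 14.36 in MSC. MSC replicate 4 was well above the other arrays, and NP replicate 2 was above 3 of the 4 MSC arrays. The log2 fold change was 0.74 (SE 0.37, limma FDR 0.47), and without MSC replicate 4 it was 0.34 (SE 0.26). Sparc, which encodes a collagen-binding glycoprotein, had equal means of 15.98 in both groups, with an SE of 0.19 on the difference.

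Elastin and the fibrillins build elastic fibres of vessel walls. Eln was at -0.24 (SE 0.24), Fbn1 at 0.27 (SE 0.24) and Fbn2 at -0.06 (SE 0.11).

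Of 22 MMPs on the array 7 passed the filter, and the class median was -0.12. It was -0.04 without MSC replicate 2, and it turned positive with other filters, at 0.0055 with none and 0.14 with one on spots well above background. Mmp24 and Mmp11 were lower in MSC with no overlap between the groups. Mmp24 encodes a membrane-bound MMP. It had 9.93, 10.12, 9.90, 10.04 and 9.99 in NP and 9.72, 9.86, 9.89 and 9.64 in MSC, a log2 fold change of -0.22 (SE 0.08, limma FDR 0.393, exact permutation p = 0.00794). Mmp11 encodes stromelysin-3, which is activated inside the cell. It had 9.98, 9.69, 9.99, 9.66 and 9.69 in NP and 9.61, 9.58, 9.63 and 9.32 in MSC, a log2 fold change of -0.26 (SE 0.11, limma FDR 0.403, exact permutation p = 0.0159). In both genes the nearest arrays of the 2 groups were apart by less than 0.1 on the log2 scale. Their exact tests, like that of Col17a1, were added after these values were seen and are no separate support.

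Mmp2 encodes gelatinase A, which degrades denatured collagen and type IV collagen. It had 10.92, 12.06, 10.99, 11.30 and 11.37 in NP and 11.63, 10.98, 12.03 and 12.38 in MSC. Again NP replicate 2 lay among the upper MSC arrays and MSC replicate 2 near the lowest NP arrays. The log2 fold change was 0.43 (SE 0.30, limma FDR 0.597), and a second Mmp2 probe gave 0.49 (SE 0.15) with a limma FDR of 0.334 over all probes. Mmp14, the membrane protease that activates gelatinase A, was at 0.14 (SE 0.16), and Mmp15, another membrane-type MMP, at 0.24 (SE 0.16).

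The other 15 MMPs were below the filter, Mmp9 among them, which encodes the gelatinase of neutrophils and macrophages. In this set was the whole group of secreted MMP genes that lie together on chromosome 8, including those of the collagenases Mmp8 and Mmp13, the stromelysins Mmp3 and Mmp10, matrilysin Mmp7 and the macrophage elastase Mmp12. None of its 10 members was tested. Mmp13, Mmp3, Mmp8 and Mmp7 were well above background on none of the 9 arrays, Mmp10 on 2 MSC arrays, and Mmp12 on 3 NP and 3 MSC arrays. Members of this group are textbook targets of AP-1, and on either strand TGANTCA was in the 250 bases before the start of 7 of the 10 and TGACTCA in 6, counts looked up after their levels were known. The site nearest to the start is printed in capitals with 20 bases on each side for 3 of them, from GRCr8 on the plus strand, at chr8:12782743-12782789, chr8:12925190-12925236 and chr8:12974626-12974672.

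Mmp13: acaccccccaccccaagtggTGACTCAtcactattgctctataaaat
Mmp3: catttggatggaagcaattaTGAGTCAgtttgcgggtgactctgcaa
Mmp10: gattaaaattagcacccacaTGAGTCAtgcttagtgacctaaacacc

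The motif begins 66, 71 and 61 bases before the start, in this order. A match of letters does not show that a factor binds there.

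The 3 TIMPs were tested and all had a higher mean in MSC, with a class median of 0.27 (0.53 within the first slide and 0.09 within the second). Timp2, which takes part in activating gelatinase A as well as inhibiting it, differed by 0.27 (SE 0.18). Timp4 differed by 0.35 (SE 0.18, limma FDR 0.48). Timp3, the inhibitor that binds the matrix and also blocks ADAMTS proteases, had 12.59, 14.04, 13.05, 13.61 and 13.70 in NP and 13.82, 13.75, 13.22 and 12.87 in MSC. Its means differed by 0.02 (SE 0.30), but the slides pointed in different directions, with 0.56 (SE 0.43) within the first and -0.61 (SE 0.15) within the second. The limma FDR of that difference between slides was 1.00.

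Of 16 ADAMTS genes 5 were tested. Adamts1, a protease of proteoglycans, was at 0.38 (SE 0.20, limma FDR 0.482) and Adamts9 at -0.37 (SE 0.24, FDR 0.568). Adamts2, which trims procollagen, and Adamts7 and Adamts15 lay between -0.04 and 0.02.

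The spread within the groups was wider for the members than for genes at large, and the same arrays carried it in most classes. The median SD within NP was 0.277 over the 58 members and 0.195 over all genes, and in MSC it was 0.275 and 0.134. NP replicate 2 was the highest of the 5 NP arrays for 44 of 58 members (75.9%), against 34.5% of all genes. NP replicate 1 was the lowest for 33 members (56.9%, against 35.6%). MSC replicate 2 was the lowest of the 4 MSC arrays for 40 members (69.0%, against 21.6%), and for 19 of the 24 collagens tested. The difference between the group means was larger than the whole NP range in 2 of 58 members (3.45%), against 3.47% of all genes.

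**Figure D3:**
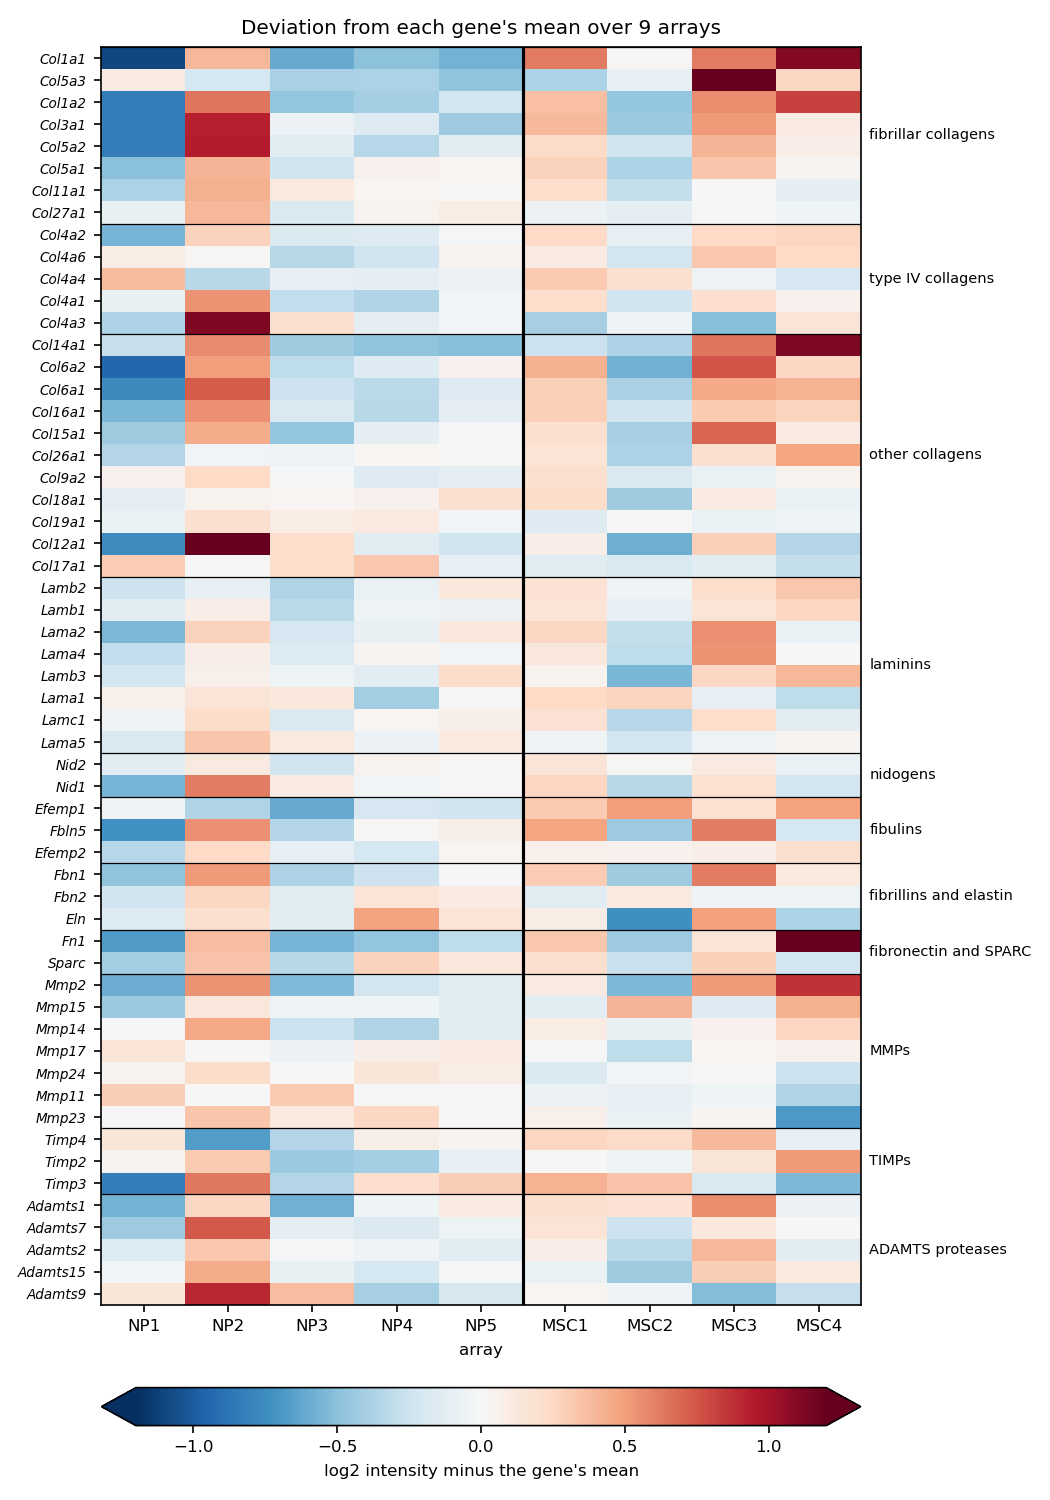
Each row is a member reported here and each column an array; colour gives the log2 intensity minus the mean of the gene over the 9 arrays, on a scale capped at both ends. NP replicate 2 is red and NP replicate 1 blue through most classes, and MSC replicate 2 is blue through most collagens, so that arrays of the same group differ more than the group means do.

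The mean centred level over all 58 members was -0.28, 0.32, -0.17, -0.11 and -0.05 on NP replicates 1 to 5 and 0.14, -0.18, 0.23 and 0.11 on MSC replicates 1 to 4. The highest of the 9 arrays was thus an NP array. Markers of matrix-producing cells moved with the members on some arrays and not on others. The 9 tested markers of fibroblasts, pericytes and smooth muscle had a mean centred level of 0.70 on NP replicate 2 and -0.44 on NP replicate 1. It was -0.30 on MSC replicate 2 and 0.31 on MSC replicate 3. On NP replicate 4 and MSC replicates 1 and 4 it was 0.12, -0.04 and -0.09, opposite in sign to the members. Between groups the median log2 fold change of these markers was -0.04, with 3 of 9 markers higher. The log2 of their summed intensity ranged from 14.05 to 15.26 in NP and from 14.18 to 14.85 in MSC. Postn, Cnn1 and Notch3 were below the filter.

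Of 12 markers of mesenchymal stromal cells, 9 passed the filter. They had a median log2 fold change of 0.03, 6 of 9 were higher, and the log2 of their summed intensity was 14.35 to 15.70 in NP and 14.90 to 15.32 in MSC. Thy1, Itga5 and Lepr, genes used to define such cells, were below the filter. Fat genes were higher on average in MSC. Of 10 tested, 9 were higher in MSC and 3 had an unadjusted limma p under 0.05, with a median log2 fold change of 1.33, and the log2 of their summed intensity ranged from 16.34 to 16.51 in NP and from 15.88 to 17.39 in MSC. Pck1, which proximal tubules also express, made up most of that sum in NP. Without it the range was 13.31 to 14.10 in NP and 13.35 to 16.46 in MSC. Plin1 and Lep were below the filter. The part of fibroblast, MSC or fat content in the matrix values was not tested. Leaving out both arrays with the high fat scores, MSC replicates 3 and 4, left 1 member higher (Efemp1, log2 fold change 0.70) and none lower at an unadjusted limma p under 0.05, against 3.83% and 2.65% of all genes. In that smaller fit Col1a1 was at 0.79 (SE 0.36), Lamb2 at 0.19 (SE 0.15), Col17a1 at -0.31 (SE 0.14), Mmp11 at -0.21 (SE 0.13) and Mmp24 at -0.20 (SE 0.11).

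**Figure D4:**
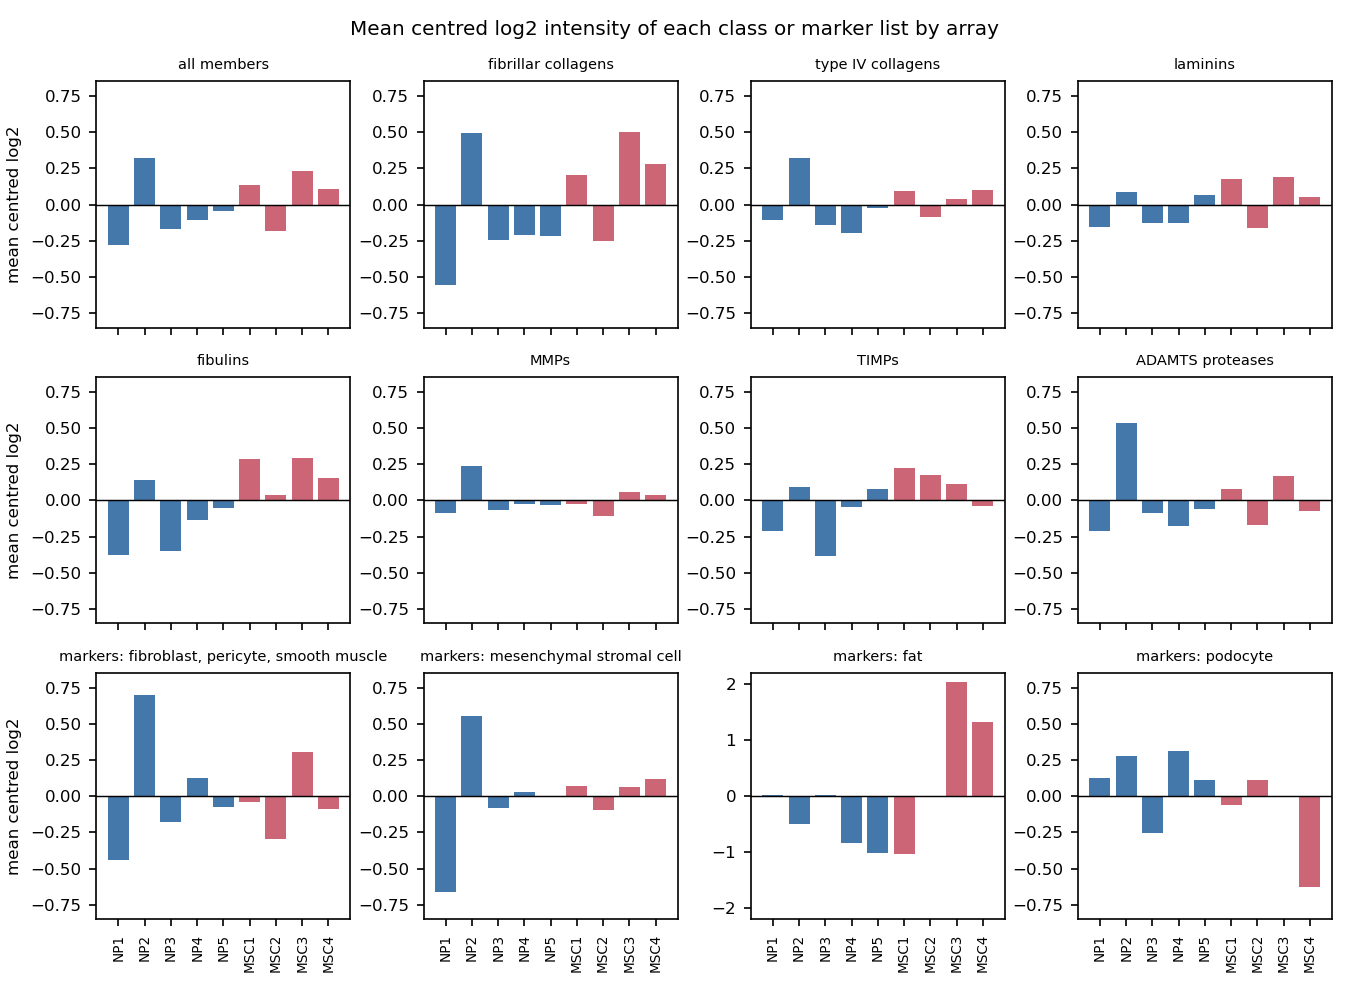
Bars give the mean centred log2 intensity of a class of members or of a marker list on each array, NP in blue and MSC in red; the fat panel has a wider y axis than the others. The fibrillar collagens and the markers of fibroblasts, pericytes and smooth muscle are both high on NP replicate 2 and low on NP replicate 1, and fat markers are high on MSC replicates 3 and 4 alone.

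The count of members at an unadjusted limma p under 0.05 depended on which arrays were in the fit. Without NP replicate 2, 16 members were higher in MSC (27.6%, against 5.98% of all genes) and 2 lower (3.45%, against 4.12%). Col1a2, Fn1, Col4a2, Lamb1, Mmp2, Mmp14 and Timp2 were among the 16. Without MSC replicate 2, 10 were higher (17.2%, against 4.94%). Within the second slide alone 20 members were higher (34.5%, against 3.62%) and 1, Timp3, was lower (1.72%, against 4.25%), whereas within the first slide 1 was higher and none was lower, against 3.57% and 2.21% of all genes. No member passed both the FDR and the fold change in any of these fits. With the difference between slides tested directly, 3 members had a log2 fold change shifted upward from the first slide to the second at an unadjusted limma p under 0.05, against 1.09% of all genes. These were Col14a1 (-0.27 to 1.38), Col5a3 (-0.07 to 1.36) and Adamts15 (-0.36 to 0.32), all of which changed sign, and the smallest FDR over the members was 1.00. The second slide holds the arrays with the high fat scores and not NP replicate 2, NP replicate 1 or MSC replicate 2.

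**Figure D5:**
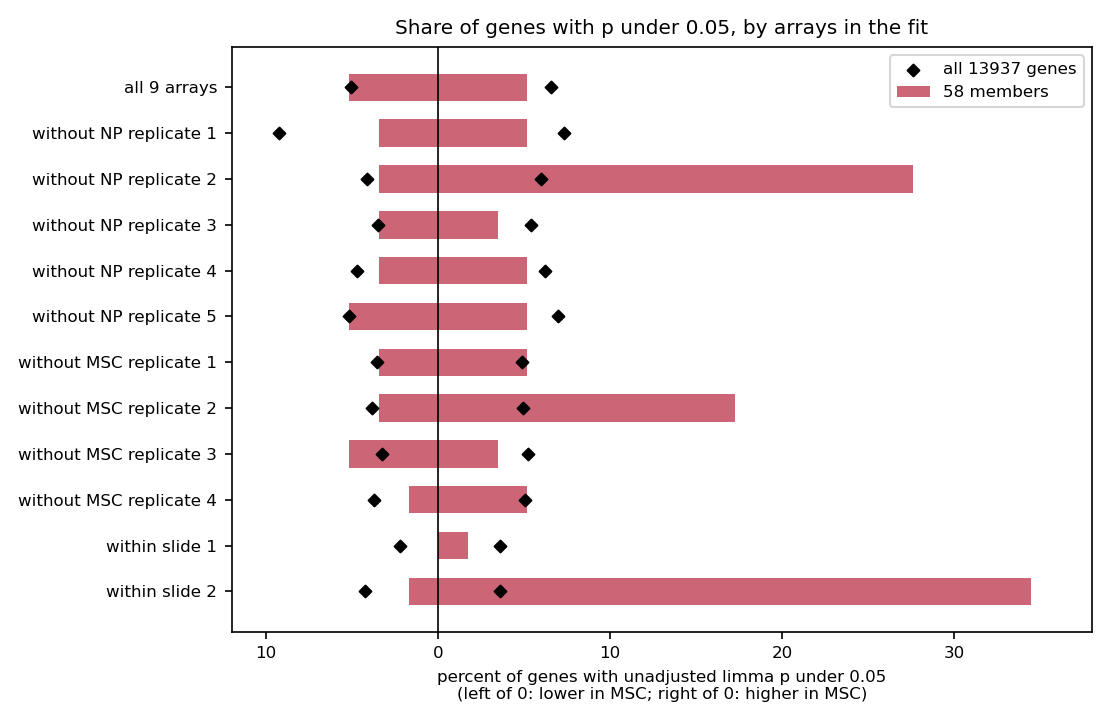
Bars give the percent of the 58 members with an unadjusted limma p under 0.05, lower in MSC to the left of 0 and higher to the right, for the fit on all 9 arrays, without each array in turn and within each slide; diamonds give the same for all 13937 genes. The bar to the right reaches 27.6% without NP replicate 2, 17.2% without MSC replicate 2 and 34.5% within slide 2, and is at 5.17% or less in the other fits.

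There were 9 members with 2 probes passing the filter. For 6 of them the 2 probes differed between groups in the same direction, and for Col11a1, Efemp2 and Lamc1 in opposite directions, each by less than 2 standard errors. For Col4a1, Mmp2 and Timp4 the probe not kept had an unadjusted limma p under 0.05, at 0.0131, 0.00996 and 0.0423. Their kept probes did not, and only kept probes entered the main counts.

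Genes that fold, modify, crosslink, bind or activate around the members were taken from 6 lists, 55 genes tested in all. Of these 36 had a higher mean in MSC. At an unadjusted limma p under 0.05, 3 were higher, among them Crtap and Plau, and 1, Ddr1, was lower, against 6.57% and 5.07% of all genes. None passed the FDR. Crtap, part of the complex that hydroxylates a proline of procollagen, was at 11.28, 11.09, 11.19, 11.30 and 11.30 in NP and 11.54, 11.55, 11.45 and 11.51 in MSC, without overlap (log2 fold change 0.28, SE 0.08, limma FDR 0.336). In its list of collagen folding and modification, 12 of 13 genes had a higher mean in MSC, with a median of 0.12.

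The plasminogen system activates several MMPs. Plau, which encodes urokinase, was at 0.51 (SE 0.19, limma FDR 0.386), and 4 of the 6 genes tested in this list had a lower mean in MSC. Ddr1, a tyrosine kinase receptor for collagen, was at -0.78 (SE 0.30, FDR 0.389), and 10 of 15 matrix receptors had a lower mean in MSC. In the lists of collagen maturation, proteoglycans and ADAM proteases the genes with the smallest p were Tgm2 (0.21, SE 0.10), Ogn (0.54, SE 0.42) and Adam17 (0.21, SE 0.11).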

How the data were processed

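Each array measured the RNA of 1 kidney by Cy3 brightness. The authors deposited mean pixel intensity per spot from Agilent Feature Extraction 10.7.3.1, without background subtraction, and a table of log2 values that they had normalized between arrays by cyclic loess. The rerun started from the deposited intensity. Spots with outlier flags were left out, log2 values were normalized by cyclic loess, and a probe was kept where at least 4 arrays exceeded a limit, which was the 95th percentile of the log2 negative controls times 1.1, a reading of an ambiguous filter in the methods. Spots of a probe were averaged and the most variable probe was kept per gene. Across probes, Pearson's r with the deposited log2 values was 0.9999 to 0.99997 by array.

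MSC and NP arrays were compared with limma 3.58.1 (R 4.3.3), a linear model with empirical Bayes, and the Benjamini-Hochberg FDR was taken over 13937 genes. A call was an FDR below 0.05 and a fold change above 1.5. For 26 members the 126 splits of the arrays also gave an exact two-sided permutation p, under 0.05 for 3. It was added for Col17a1, Mmp11 and Mmp24 after their values were seen. A Benjamini-Hochberg correction of the exact p-values was planned, but those printed are uncorrected. A centred level is the mean, over a list, of each gene's log2 value minus its mean over 9 arrays. The members and lists were chosen with earlier results of these data known. Genes are named by these rules: members with an unadjusted p under 0.05, the smallest p and the brightest of each class, a list of well-known members, and the smallest p of each related list; the other members named were chosen after their values were seen. Probe positions are on rn4, per the file headers. Promoters are RefSeq's on GRCr8, and 80 of 106 members had one. The number of arrays limits precision, and replicate numbers did not pair the arrays. The steps were tested on simulated data. A member and a related gene that were tested, and are in the counts, are not reported by name here.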

Additional observations from a re-analysis of the deposited data

Results flagged for a closer look

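A total of 3 values stood apart from the rest of their group among 84 groups of 4 or 5 arrays checked, where chance gives about 4.2. Col4a2 was low on MSC replicate 2, at 9.99 against 10.33 to 10.35 on the other MSC arrays, a gap of 0.950 of the range of the group. The mean centred level of the 7 MMPs was high on NP replicate 2, at 0.24 against -0.08 to -0.03 on the other NP arrays (0.822 of the range). That of the 5 ADAMTS proteases was also high on NP replicate 2, at 0.53 against -0.21 to -0.06 (0.797 of the range).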

How the results depend on the processing

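Over 26 alternatives no member was called at an FDR below 0.05 and a fold change above 1.5, and of 34 members reported here whose difference exceeded its standard error, 6 changed sign under an alternative, each by less than the standard error there. These were Col14a1 (-0.27 within slide 1 and -0.09 without MSC replicates 3 and 4), Mmp2 (-0.02 in both), Col5a3 (-0.07 within slide 1), Col26a1 (-0.02) and Lama4 (-0.01) without MSC replicates 3 and 4, and Efemp2 (-0.05 with the brightest probe). The counts at an unadjusted limma p under 0.05 moved. Members higher in MSC, 3 in all arrays, were 8 of 106 with no filter (4.75% of all genes), 5 of 73 with a filter on spots well above background (6.10%), 6 of 58 with array weights (8.06%), 1 within slide 1 (3.57%), 20 within slide 2 (3.62%), 1 without MSC replicates 3 and 4 (3.83%), and 8 without NP replicate 2 and MSC replicate 4 (4.58%), a pair chosen after seeing the data. Members lower, 3 in all arrays, were 1 with median scaling (4.15% of all genes), 0 within slide 1 (2.21%), 1 within slide 2 (4.25%), 0 without MSC replicates 3 and 4 (2.65%), and 1 without that pair (3.31%). Leaving out 1 array gave 2 to 16 higher (4.89% to 7.34% of all genes) and 1 to 3 lower (3.29% to 9.28%). Class medians moved for MMPs to 0.0055 with no filter and 0.14 with the other filter, for other collagens to -0.088 and TIMPs to 0.53 within slide 1, for TIMPs to 0.088 and type IV collagens to 0.32 within slide 2, and for fibulins to 0.47 without the pair and to between 0.11 and 0.38 without 1 array. Without 1 array the medians of the other classes moved by less than the SD between arrays, at 0.05 to 0.49 for fibrillar, 0.05 to 0.22 for type IV and 0.08 to 0.36 for other collagens, 0.05 to 0.25 for laminins, 0.21 to 0.55 for fibronectin and SPARC, -0.06 to 0.11 for nidogens, -0.15 to -0.04 for MMPs, 0.19 to 0.33 for TIMPs, -0.13 to -0.01 for fibrillins and elastin and -0.12 to 0.11 for ADAMTS proteases. With the replicate number as a block, 4 members were higher (6.90%, against 6.27% of all genes) and 2 lower (3.45%, against 5.02%); same-numbered arrays had correlations of -0.35 to 0.33, so the numbers do not pair the arrays. The filters change which genes enter a median; the cause of the other changes was not tested. Members dim on every array have a bound only.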
